A study of Mus musculus with 6 samples.

Results

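The genes described here carry pyruvate into mitochondria, run the tricarboxylic acid (TCA) cycle and break down fatty acids. They were 41 genes picked by symbol from the 14975 genes of a mouse platelet RNA-seq table, and all 41 were found. By role they were 2 pyruvate carriers, 4 subunits of pyruvate dehydrogenase, 5 kinases and phosphatases of that enzyme, 1 pyruvate carboxylase, 17 TCA cycle genes, 2 carnitine palmitoyltransferases, 7 beta-oxidation enzymes and 3 electron transfer genes. The rule used symbols alone and no measured value.

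RNA was taken from platelets depleted of CD45+ leukocytes and Ter119+ red cells, and cDNA was made by SMART-Seq2, which reads full-length transcripts without marking the strand. The labels give the strain as C57BL/6, and the study's recipients were CD45.1 congenic or C57BL/6 mice. The control group (3 libraries, labelled WT) came from recipients transplanted with normal bone marrow. The pre-AML group (3 libraries, labelled AML) came from recipients of hematopoietic stem and progenitor cells transformed by a retrovirus carrying the MLL-AF9 fusion oncogene and GFP, passed through a first host, with sampling 1 week after transplantation (a time the labels leave out). Mice were 8 to 12 weeks old, and a sub-lethal dose of 650 cGy is given for the recipients of the transformed cells. How much host marrow remained was not measured here. Sources differ on whether a library is 1 mouse or a pool of 3 to 4 mice, and on 2 or 3 replicates per group, so that the p-values measure the spread between these libraries, whatever they hold.

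Platelets carry no nucleus but keep a few mitochondria and an RNA stock inherited from the megakaryocyte. Pyruvate made by glycolysis is carried into the mitochondrion and turned into acetyl-CoA by pyruvate dehydrogenase, which its kinases switch off and its phosphatases switch on. The TCA cycle oxidises acetyl-CoA, and beta-oxidation is the other main source of it, with fatty acids brought in on carnitine and their electrons passed on through the electron transfer flavoprotein.

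The reads recovered per library numbered 11780200 to 17522269. The library sizes behind the FPKM values (fragments per kilobase of exon, scaled to a common number of mapped fragments) were 11737751 to 23330902. At those sizes 3 reads on a gene of 2 kb corresponded to 0.0643 to 0.128 FPKM. All 13 platelet marker genes, Pf4 and Ppbp among them, were detected in every library. One library stood apart, with pre-AML 3 at 41.9 on a first principal component that held 70.2% of the variance and the other 5 between -12.7 and -2.12. B cell, monocyte and macrophage, and T and NK cell marker sums were highest in that library, and their values are given beside the results they move with.

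The levels of the 41 genes spread over 3 orders of magnitude, from Etfb at a mean of 42.1 FPKM over the 6 libraries to Pdk4 at 0.040 FPKM. Etfb, Mdh1, Acadm and Mdh2 led with means of 42.1, 34.6, 33.9 and 30.5 FPKM, which placed them at the 95.9th to 94.9th percentile of all genes in the table. They encode the beta subunit of the electron transfer flavoprotein, the cytosolic and mitochondrial malate dehydrogenases and the medium-chain acyl-CoA dehydrogenase. Sdhd and Ogdh followed at 16.4 and 15.1 FPKM, then Idh3g, Sdhb and Cpt2 at 11.6, 9.66 and 8.96 FPKM. The summed level of all 41 genes was 307, 254 and 256 FPKM in the controls and 268, 271 and 258 FPKM in pre-AML, that is 272 ± 30.1 against 265 ± 6.80 FPKM (SD, n = 3 each). On the FPKM scale the groups overlapped in that sum, and control 1 was the highest library. All listed genes together summed to 376148 FPKM in pre-AML 3 and to 508605 to 541784 FPKM in the other libraries. Summed levels are therefore not shares of a library, and as shares the order of libraries can differ.

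Most neighbours in the order of levels had overlapping ranges over the 6 libraries. Such overlap does not mean that the order changed within a library, and Idh3g, for example, exceeded its neighbour Sdhb in all 6. The ranges over the 6 libraries were separate at 3 places only, between Mdh2 (lowest 27.4 FPKM) and Sdhd (highest 18.0), between Ogdh (lowest 13.2) and Idh3g (highest 12.7), and between Cpt2 (lowest 7.94) and Sdha (highest 7.47). Below Sdha the ranges of neighbours overlapped throughout. The Etfb value is uncertain, because 58.2% of its exon bases lie under other annotated genes, 53.0% under Gm45233 on the same strand.

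**Figure D1:**
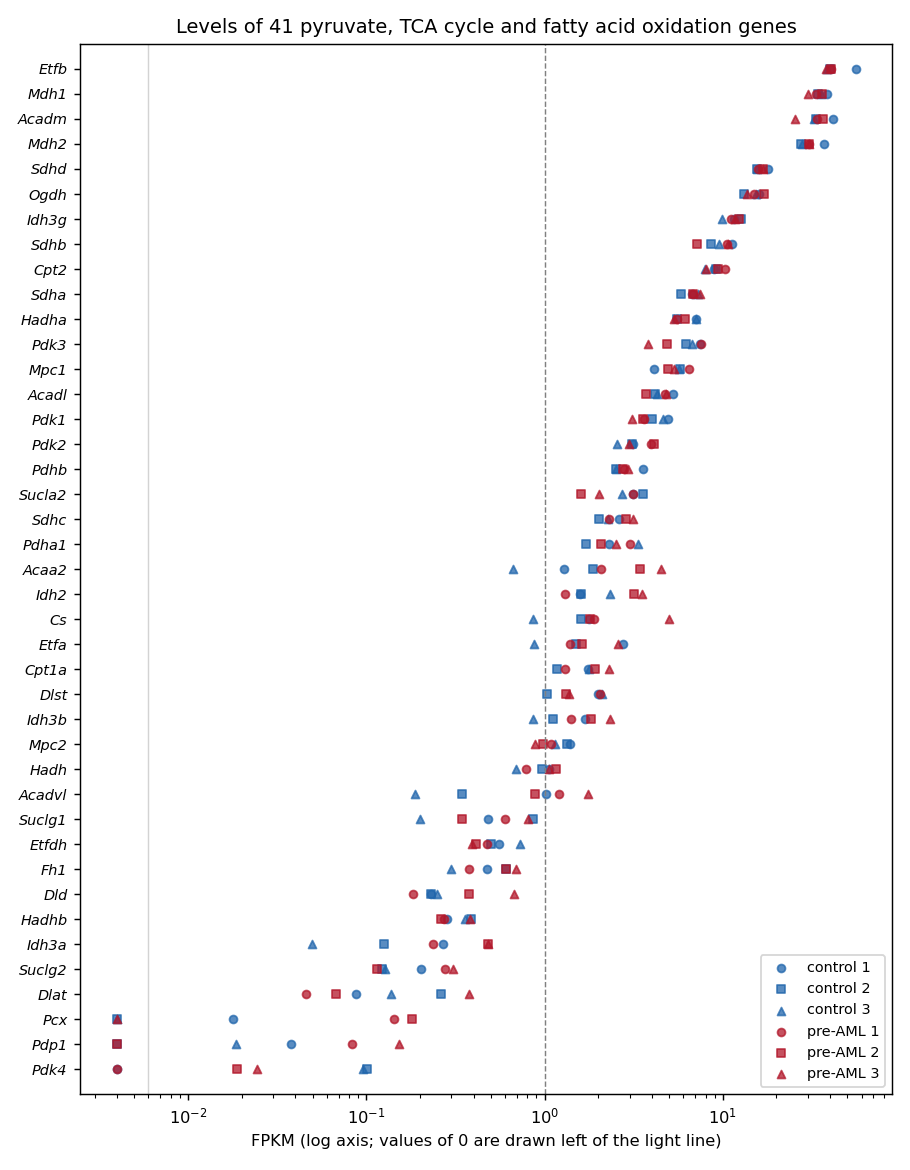
FPKM of the 41 genes on a log axis, 1 point per library (control blue, pre-AML red, marker shape by library number), ordered by mean level, with values of 0 left of the light line and the dashed line at 1 FPKM. Etfb, Mdh1, Acadm and Mdh2 lie at the top with means from 30.5 to 42.1 FPKM, and Pdk4 at the bottom with 0.040 FPKM.

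None of the 41 genes passed the threshold between pre-AML and control. Of the 41, 28 reached a mean of 1 FPKM and were tested with limma-trend on log2(FPKM + 1) among 4412 genes, and their Benjamini-Hochberg adjusted p-values lay between 0.522 and 0.997. Over all genes tested 0.0227% passed an adjusted p of 0.05, which was 1 gene, so that a count of 0 among 28 is what the background share gives. At an unadjusted p under 0.05, 1 of the 28 was higher in pre-AML (Acaa2) and 0 were lower, where 2.56% of all tested genes were higher and 6.53% lower. Of the 28, 16 had a difference above 0 and 12 below, against 41.5% above 0 over all tested genes, with a median of 0.02 and a range of -0.37 (Sucla2) to 0.92 (Acaa2) on the log2 scale. The median over all tested genes was -0.06. Rescaling each library to the same total (TPM) moved the all-gene median to 0.09, with 22 of the 28 above 0, and the unadjusted counts over all genes from 113 higher and 288 lower to 281 higher and 197 lower.

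The intervals limit how far most members could have differed. The 95% interval of the difference lay within 2-fold in either direction for 26 of the 28 and within 1.5-fold for 17 of the 28, on the log2(FPKM + 1) scale, which understates the change of low genes. The 2 wider intervals were those of Acaa2 and Cs. The 3 values of one group did not overlap those of the other for 2 tested members that were higher in pre-AML (Cs and Acaa2) and 2 that were lower (Pdk1 and Mpc2), where such separation was found for 6.14% of all tested genes upward and 12.8% downward. In these bulk libraries fewer cells carrying a transcript and less of it per cell cannot be told apart.

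**Figure D2:**
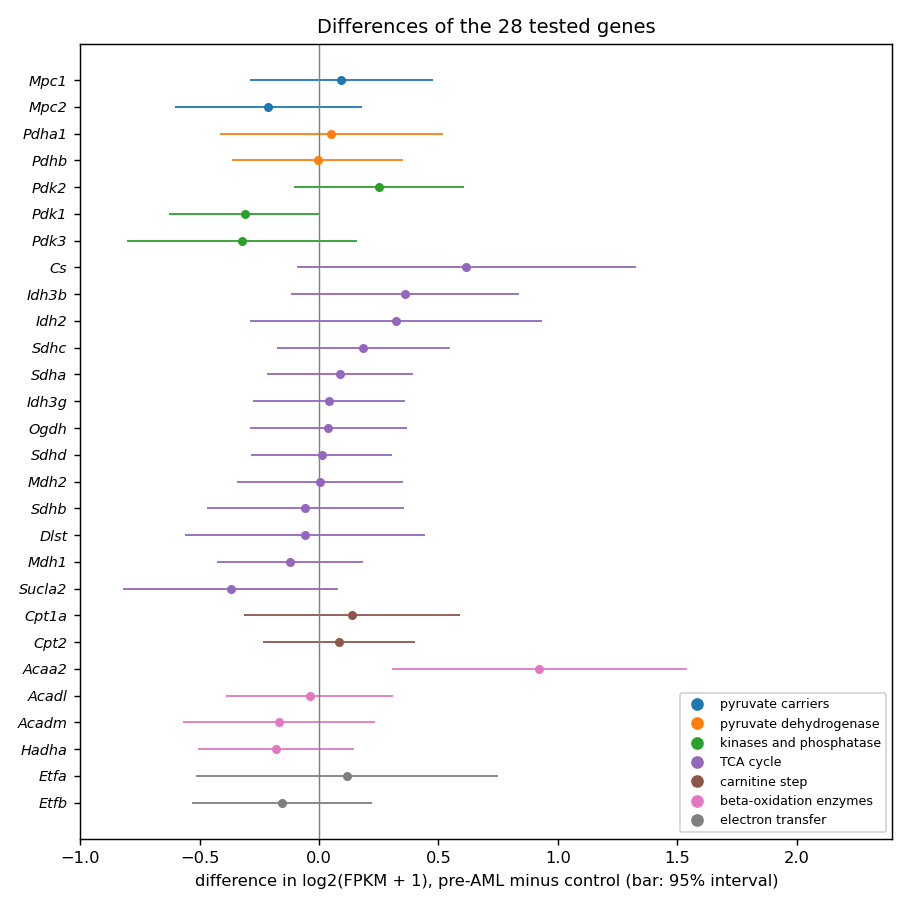
Difference in log2(FPKM + 1) between pre-AML and control for the 28 tested genes (points, coloured by role) with 95% intervals (bars). The points run from -0.37 (Sucla2) to 0.92 (Acaa2), and the interval of Acaa2 (0.31 to 1.54) is the only one wholly above 0.

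Pyruvate enters through a carrier made of Mpc1 and Mpc2. Mpc1 stood at 4.09, 5.77 and 5.69 FPKM in the controls and 6.50, 4.90 and 5.33 FPKM in pre-AML, a difference of 0.09 ± 0.17 (log2, SE). Mpc2 stood at 1.39, 1.35 and 1.15 FPKM against 1.09, 0.976 and 0.879 FPKM. Every pre-AML value of Mpc2 was below every control value, yet the fitted difference was -0.21 ± 0.17 (SE), with an adjusted p of 0.614 in limma-trend. Mpc2 reached the filter through its control values, its pre-AML mean being 0.980 FPKM. With trends in gene length and GC content removed its difference was -0.01. For Mpc1, 23.1% of the exon bases overlap 4930506C21Rik on the opposite strand and a processed pseudogene, Mpc1-ps, is annotated, so its level is uncertain.

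The 4 genes of pyruvate dehydrogenase were unequal in level. The E1 subunits Pdhb and Pdha1 had means of 2.85 and 2.49 FPKM, whereas Dlat (the E2 acetyltransferase core) and Dld (the E3 dehydrogenase shared with oxoglutarate dehydrogenase) were at 0.163 and 0.325 FPKM and were not tested. Pdhb, the highest of them, was 3.57, 2.51 and 2.52 FPKM in the controls and 2.79, 2.76 and 2.93 FPKM in pre-AML. The difference of Pdhb was 0.00 in size to 2 decimals (SE 0.16, 95% interval -0.36 to 0.35), and the groups overlapped. Dlat rested on 3 to 18 reads in 5 libraries and 43 in pre-AML 3, and Dld on 9 to 21 reads and 58 in pre-AML 3.

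The pyruvate dehydrogenase kinases, which inactivate the complex by phosphorylation, were represented by Pdk3, Pdk1 and Pdk2, in that order of mean level. Pdk1 stood at 4.93, 3.98 and 4.59 FPKM in the controls and 3.61, 3.56 and 3.11 FPKM in pre-AML, with no overlap. Its difference was -0.31 ± 0.14 (SE), with an unadjusted p of 0.0526 and an adjusted p of 0.522 in limma-trend. Pdk2 stood at 3.12, 3.08 and 2.55 FPKM against 3.94, 4.11 and 2.98 FPKM. Here pre-AML 3 lay among the controls, and the difference was 0.25 ± 0.16 (SE), adjusted p = 0.553 in limma-trend. Pdk3 stood at 7.45, 6.22 and 6.69 FPKM against 7.51, 4.87 and 3.80 FPKM. The spread of Pdk3 within pre-AML (SD 1.91) was larger than the gap between the group means, with a difference of -0.32 ± 0.21 (SE) that became -0.14 when pre-AML 3 was left out and -0.55 when pre-AML 1 was.

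Pdk4, the kinase known for its induction by fasting and fatty acids, was at or near the detection floor, at 0, 0.101 and 0.0957 FPKM in the controls and 0, 0.0189 and 0.0244 FPKM in pre-AML. These values were 0, 5, 4, 0, 1 and 2 reads in the same order. The catalytic phosphatase Pdp1 had 2, 0 and 1 reads in the controls and 5, 0 and 16 in pre-AML. Neither transcript can be compared between groups at this depth.

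The makeup of the kinase transcripts was then read within each library, where no scaling between libraries enters. These ratios were chosen after their values had been seen and are given as a description. An exact permutation test gave p = 0.1 for Pdk1 to Pdk2 and for Pdk3 to Pdk2. With 3 libraries per group that is the smallest p this test can give, so it cannot decide the question. Pdk1 exceeded Pdk2 by 1.58, 1.29 and 1.80 times in the controls, whereas in pre-AML the ratio was 0.916, 0.867 and 1.04. All 3 pre-AML ratios were below all 3 control ratios, a log2 difference of -0.72. Pdk3 to Pdk2 was 2.38, 2.02 and 2.62 against 1.90, 1.18 and 1.27, again without overlap (log2 difference -0.71). Pdk1 to Pdk3 overlapped between the groups (log2 difference 0.00 to 2 decimals). Without pre-AML 3 the first and second ratios differed by -0.79 and -0.63.

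Put as shares of the 4 kinase transcripts, Pdk2 made up 20.2%, 23.0% and 18.3% in the controls and 26.2%, 32.7% and 30.1% in pre-AML, while Pdk4 stayed at or under 0.756%. GC content moved with these differences: Pdk2 has 56.9% GC and Pdk1 46.4%, and over 4307 tested genes with a known length the difference between the groups had a Spearman correlation of 0.56 with GC content. Once trends with length and GC were removed, the Pdk1 difference was -0.19 and that of Pdk2 was 0.09. The part of GC content in the kinase ratios was not tested. Under TPM the differences were -0.19 for Pdk1, 0.43 for Pdk2 and -0.20 for Pdk3.

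**Figure D3:**
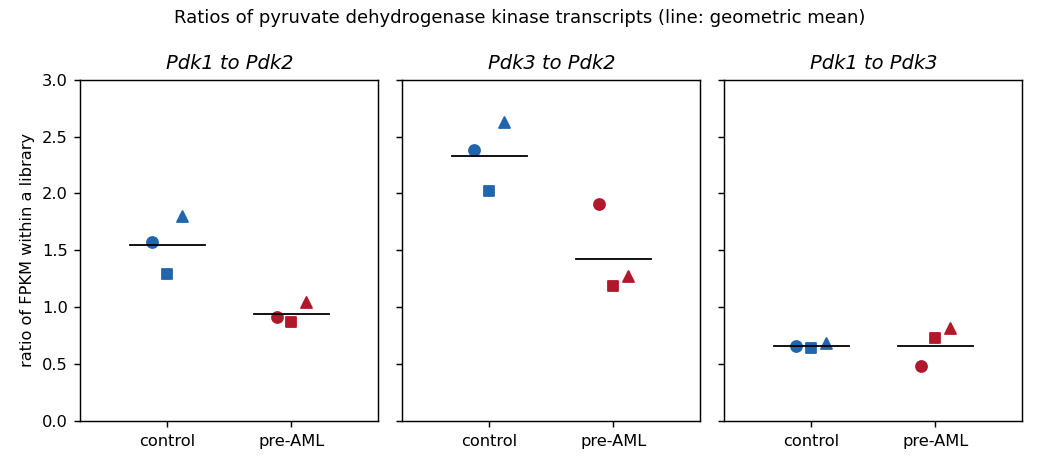
Ratios of FPKM within a library for 3 pairs of pyruvate dehydrogenase kinases, 1 point per library and a line at the geometric mean of each group. In the left and middle panels the 3 pre-AML points lie below the 3 control points, 0.867 to 1.04 against 1.29 to 1.80 for Pdk1 to Pdk2 and 1.18 to 1.90 against 2.02 to 2.62 for Pdk3 to Pdk2, and in the right panel they overlap.

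Pcx, which makes oxaloacetate from pyruvate, had 1, 0 and 0 reads in the controls and 9, 13 and 0 in pre-AML. The highest value was 0.181 FPKM. It was listed at 0 in 3 of the 6 libraries, pre-AML 3 among them.

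Of the 17 TCA cycle genes 13 were tested, 9 with a difference above 0 and 4 below, and their median difference was 0.04 on the log2 scale. Adjusted p-values from limma-trend were 0.522 to 0.997. The summed level of the 17 was 153, 130 and 133 FPKM in the controls and 137, 141 and 140 FPKM in pre-AML. On the FPKM scale all 3 pre-AML sums lay inside the control range. These sums were not rescaled for the lower FPKM total of pre-AML 3 (376148 against 508605 to 541784 elsewhere).

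The malate dehydrogenases were the most abundant cycle transcripts. Mdh1, the cytosolic enzyme of the malate-aspartate shuttle, stood at 38.2, 34.2 and 35.8 FPKM in the controls and 33.5, 36.0 and 29.9 FPKM in pre-AML. Its difference was -0.12 ± 0.13 (SE), adjusted p = 0.711 in limma-trend, which turned to 0.04 under TPM. Mdh2, which closes the cycle inside the mitochondrion, stood at 36.9, 27.4 and 27.7 FPKM against 30.3, 30.6 and 30.3 FPKM. Control 1 set the width of the control range of Mdh2, and the difference was 0.00 to 2 decimals with a 95% interval of -0.34 to 0.35.

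Citrate synthase (Cs), which condenses acetyl-CoA with oxaloacetate, stood at 1.78, 1.60 and 0.862 FPKM in the controls and 1.90, 1.79 and 4.98 FPKM in pre-AML. The groups did not overlap, but pre-AML 2 lay just above control 1, and pre-AML 3 was 3.14 times the mean of the other 5 libraries. The difference was 0.62 ± 0.31 (SE), with an adjusted p of 0.522 in limma-trend, and 0.26 without pre-AML 3.

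Isocitrate dehydrogenases make the first NADH or NADPH of the route from citrate. Idh2, the NADP-dependent mitochondrial enzyme, was 1.58, 1.59 and 2.34 FPKM in the controls and 1.31, 3.18 and 3.53 FPKM in pre-AML, and the groups overlapped. Of the 3 subunits of the NAD-dependent enzyme, Idh3g was at 9.93 to 12.7 FPKM in all 6 libraries, Idh3b at 0.860 to 2.32 FPKM and the catalytic Idh3a at 0.0497 to 0.484 FPKM. Idh3a rested on 3 to 57 reads.

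Ogdh, the E1 subunit of oxoglutarate dehydrogenase, stood at 15.9, 13.2 and 15.4 FPKM against 14.9, 17.1 and 13.8 FPKM. Dlst, its E2 partner, was at 1.03 to 2.10 FPKM. Sucla2, the ATP-forming subunit of succinyl-CoA ligase, was 3.14, 3.55 and 2.72 FPKM in the controls and 3.13, 1.61 and 2.01 FPKM in pre-AML. Its difference of -0.37 ± 0.20 (SE) was the lowest of the 28, and the groups overlapped through pre-AML 1. The GTP-forming subunit Suclg2 and the shared subunit Suclg1 were at 0.115 to 0.306 and 0.200 to 0.862 FPKM.

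The 4 subunits of succinate dehydrogenase, which is also complex II of the respiratory chain, were all tested and all overlapped between the groups. Sdhd stood at 15.5 to 18.0 FPKM, Sdhb at 7.19 to 11.3, Sdha at 5.80 to 7.47 and Sdhc at 2.01 to 3.13 FPKM over the 6 libraries. Their differences were 0.01, -0.06, 0.09 and 0.19 on the log2 scale. Fumarase (Fh1) was at 0.297 to 0.695 FPKM and was not tested.

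Fatty acids enter the mitochondrion through Cpt1a on the outer membrane, the step that malonyl-CoA regulates, and Cpt2 on the inner membrane. Cpt1a stood at 1.76, 1.18 and 1.77 FPKM in the controls and 1.30, 1.93 and 2.29 FPKM in pre-AML (difference 0.14 ± 0.20, SE). Cpt2 stood at 8.87, 9.15 and 7.94 FPKM against 10.2, 9.45 and 8.08 FPKM (difference 0.08 ± 0.14, SE). Both overlapped between the groups, and the 95% intervals were -0.32 to 0.59 and -0.23 to 0.40. Cpt2 was 3.52 to 7.89 times as abundant per length as Cpt1a within each library.

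Acaa2, a thiolase that releases acetyl-CoA at the end of a beta-oxidation round, showed the largest difference of the 28. It stood at 1.29, 1.88 and 0.665 FPKM in the controls and 2.08, 3.41 and 4.50 FPKM in pre-AML. Those values were 23, 40 and 12 reads against 42, 78 and 159 reads. All pre-AML values were above all control values, with pre-AML 1 only just above control 2. The difference was 0.92 ± 0.27 (SE), with a 95% interval of 0.31 to 1.54, an unadjusted p of 0.00839 and an adjusted p of 0.522 in limma-trend, so it did not pass the threshold. The mean of pre-AML 1 and pre-AML 2 was 2.15 times the control mean (1.31 times for Cs), with pre-AML 2 the higher of them. Without pre-AML 3 the difference was 0.73, with an adjusted p of 0.553 in limma-trend. On recovered reads (limma-voom) it was 1.46 with an adjusted p of 0.507.

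The acyl-CoA dehydrogenases open each round of beta-oxidation and are named for the chain length they prefer. Acadm, for medium chains, stood at 41.5, 33.3 and 32.6 FPKM in the controls and 33.8, 36.4 and 25.5 FPKM in pre-AML. Its difference was -0.17 ± 0.18 (SE), adjusted p = 0.697 in limma-trend, and pre-AML 3 was the lowest library. Acadl, for long chains, was at 3.70 to 5.27 FPKM, and Acadm exceeded it by 5.28 to 9.84 times within each library. Acadvl, for very long chains, was 1.01, 0.344 and 0.188 FPKM in the controls and 1.20, 0.888 and 1.76 FPKM in pre-AML and was not tested. It overlapped between the groups, and 42.9% of its exon bases lie under Dvl2 on the opposite strand, so reads on those bases cannot be told apart between the 2 genes.

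Hadha and Hadhb encode the alpha and beta subunits of the mitochondrial trifunctional protein, which carries out the later steps of long-chain beta-oxidation. Their transcription starts lie back to back on chromosome 5, Hadha at 30155162 on the minus strand and Hadhb at 30155248 on the plus strand, 86 bases apart (GENCODE M21 on GRCm38). The 85 bases between them, chr5:30155163-30155247 on the plus strand, are shown because both genes are read outward from this stretch and yet differed in level in each library. Capitals mark the GC box letters GGGCGG.

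Hadha-Hadhb interval: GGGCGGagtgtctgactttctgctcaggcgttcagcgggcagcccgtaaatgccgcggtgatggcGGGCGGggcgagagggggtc

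The stretch has 69.4% GC and holds GGGCGG at 2 places, starting at bases 1 and 66, when both strands are searched. Over 32851 RefSeq windows of the same 85-base length ending at a gene's start (GRCm38.p6), 22.8% hold GGGCGG. The letters CCAAT (16.4% of windows), TATAAA (4.96%) and CCGGAAG (4.13%) have no match in it. RefSeq places the start of Hadhb at 30155253, a few bases into the gene.

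Hadha stood at 7.10, 5.57 and 7.10 FPKM in the controls and 5.56, 6.15 and 5.30 FPKM in pre-AML, whereas Hadhb stood at 0.284, 0.388 and 0.357 against 0.274, 0.261 and 0.383 FPKM. Hadha was thus 13.8 to 25.0 times as abundant per length as Hadhb, with overlap between the groups in this ratio. Hadhb has 39.1% GC over its exons and Hadha 51.3%, and 22 to 59 reads were behind the Hadhb values. Hadh, which acts on shorter chains, was at 0.692 to 1.16 FPKM and its mean missed the filter.

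Such head-to-head neighbours were found for 9 of the 41 members (22.0%), counting starts at most 1000 bases apart on opposite strands, and for 9.97% of 14651 genes in the table. In several of them the member was the abundant side. Mdh2 (30.5 FPKM) faces Styxl1 (0.0204 FPKM), Sdha (6.82 FPKM) faces Ccdc127 (0.248 FPKM) and Dlst (1.65 FPKM) faces Prox2 (0.0233 FPKM). Idh3g (11.6 FPKM) faces the more abundant Ssr4 (58.2 FPKM), and Sdhd (16.4 FPKM) faces Timm8b (10.7 FPKM).

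Electrons from the acyl-CoA dehydrogenases pass to the flavoprotein made of Etfa and Etfb and then to Etfdh, which hands them to ubiquinone. Etfb stood at 55.5, 40.0 and 38.6 FPKM in the controls and 40.4, 40.2 and 38.0 FPKM in pre-AML. Control 1 alone was high, and the difference of -0.15 ± 0.16 (SE; adjusted p = 0.706 in limma-trend) was 0.01 without control 1. Etfa stood at 2.74, 1.51 and 0.870 FPKM against 1.39, 1.63 and 2.57 FPKM, which overlapped. Etfdh stood at 0.554, 0.504 and 0.732 FPKM against 0.477, 0.411 and 0.392 FPKM, with every pre-AML value below every control value, but it missed the filter and was not tested.

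Partners of the same enzyme complex were thus often far apart in transcript level, in the pairs picked here. Within each library Etfb exceeded Etfa by 14.8 to 44.4 times, Idh3g exceeded Idh3b by 5.07 to 11.5 times and Idh3a by 24.4 to 200 times, and Sdhd exceeded Sdhc by 5.39 to 7.72 times. Sucla2 exceeded its partner Suclg1 by 2.49 to 13.6 times and Suclg2, its GTP-forming alternative and not its partner, by 6.57 to 28.8 times. Pdha1 exceeded Dlat by 6.54 to 65.0 times and Pdhb exceeded Dld by 4.34 to 15.4 times. The order within each of these pairs held in all 6 libraries. By contrast, the E1 subunits Pdhb and Pdha1 were close, at means of 2.85 and 2.49 FPKM, and their order changed between libraries. Mpc1 to Mpc2 was 2.95, 4.29 and 4.95 in the controls and 5.98, 5.02 and 6.07 in pre-AML, with no overlap. Sucla2 to Suclg2 was 15.5, 28.8 and 21.4 in the controls and 11.3, 14.1 and 6.57 in pre-AML, also with no overlap, and it rested on 7 to 33 reads of Suclg2. Neither ratio was tested, since both were looked at after their values. Over the 41 members the mean level had a Spearman correlation of -0.42 with exon length and 0.42 with GC content, as a description over genes, where all 14651 genes with a known length gave -0.16 and 0.03.

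**Figure D4:**
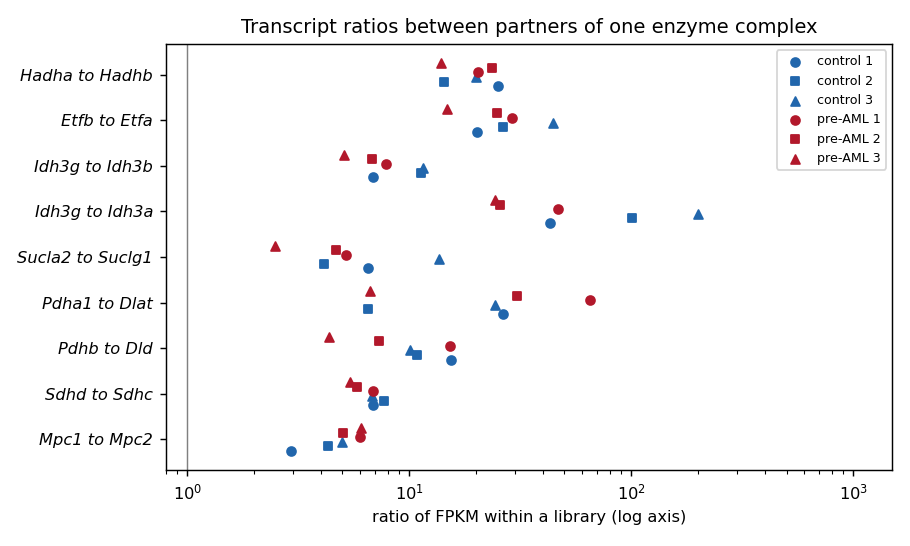
Ratio of FPKM within a library, on a log axis, for 9 pairs of partners of one enzyme or carrier, 1 point per library (control blue, pre-AML red). All points lie to the right of 1, from 2.49 for Sucla2 to Suclg1 up to 200 for Idh3g to Idh3a.

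The libraries differed in how often they set the extremes. Control 1 was the highest library for 12 of the 28 tested members (42.9%), against 23.0% of all tested genes. Pre-AML 3 was the highest for 7 (25.0%, against 18.7%) and the lowest for 7 (25.0%, against 43.8%). Control 2 and control 3 were each the lowest for 8 (28.6%, against 15.0% and 11.9%). The members highest in pre-AML 3 included Cs at 3.14 times, Acaa2 at 2.41 times, Idh2 at 1.76 times and Idh3b at 1.68 times the mean of the other 5 libraries. Mdh2 in pre-AML 3, by contrast, stood at 0.990 times that mean.

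B cell and monocyte and macrophage markers moved with pre-AML 3, whereas neutrophil markers did not. The 10 B cell markers in the table summed to 2.39 to 3.08 FPKM in the controls and to 1.45, 30.7 and 332 FPKM in pre-AML 1, 2 and 3, led by Cd74 at 168 FPKM in pre-AML 3. The 13 monocyte and macrophage markers other than Lyz2 summed to 0.504 to 1.80 FPKM in the controls and to 5.49, 7.95 and 485 FPKM in pre-AML, with Tyrobp at 4.85, 4.37 and 153 FPKM. Tyrobp alone thus made up most of the sums in pre-AML 1 and 2. In pre-AML 1, C1qa, C1qb, Cd68, Cd14 and Ctss were at 0, and Csf1r, Adgre1 and Ccr2 at 0.0651, 0.116 and 0.101 FPKM. Lyz2 itself was at 2333 to 3093 FPKM in all 6 libraries. T and NK cell markers summed to 19.1 to 28.6 against 35.0 to 47.8 FPKM. Within that list Nkg7 overlapped between the groups at 18.9 to 28.2 FPKM, and Gzma, the 1 gene past the threshold among the 4412 tested, stood at 0, 0.353 and 0 against 7.25, 4.61 and 8.90 FPKM. The 13 platelet markers summed to 91011 to 114954 FPKM in the controls and 92029, 93466 and 62397 FPKM in pre-AML. All listed genes together also summed lower in pre-AML 3, to 376148 FPKM against 508605 to 541784 FPKM in the other libraries. The marker sums are therefore not shares of the RNA in a library. The part of leukocyte RNA in the Cs, Idh2, Idh3b and Acaa2 values of pre-AML 3 was not tested.

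In pre-AML 1 the B cell sum was below that of every control, and Cs and Acaa2 were at 1.90 and 2.08 FPKM there. The 11 T and NK cell markers were higher in pre-AML 1 than in any control, at 37.1 FPKM. The neutrophil list summed to 2.32, 2.98 and 2.08 FPKM in the controls and to 3.73, 1.11 and 1.80 FPKM in pre-AML, and the leukemic progenitor list of 6 genes to 1.05 to 2.51 FPKM over the 6 libraries. The erythroid list summed to 2351 to 2991 FPKM and overlapped between the groups.

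**Figure D5:**
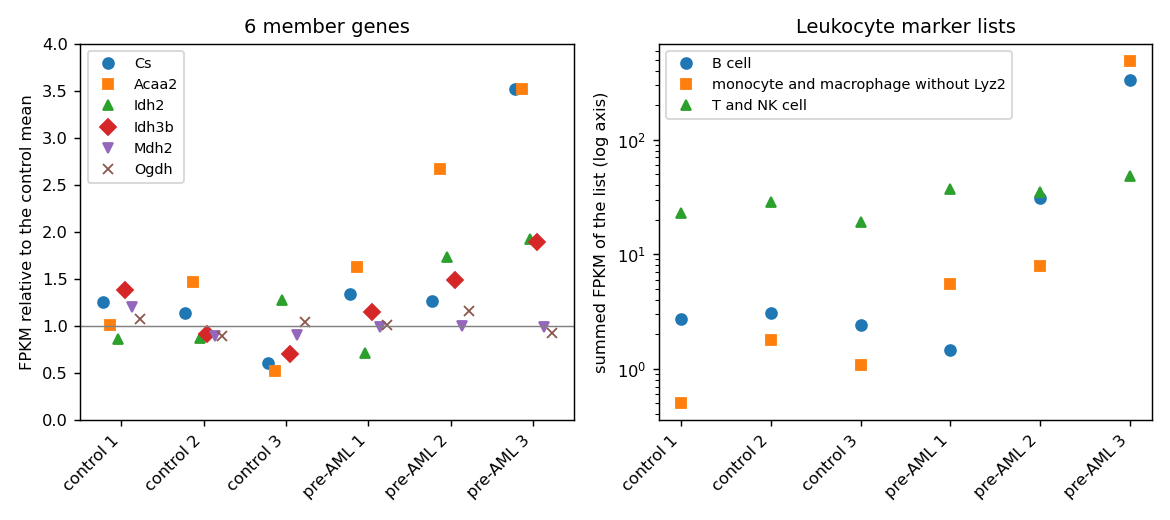
Left, FPKM of 6 member genes in each library relative to the control mean, with points shifted sideways for clarity. Right, summed FPKM of 3 leukocyte marker lists on a log axis, where pre-AML 3 reaches 332 FPKM for B cell and 485 FPKM for monocyte and macrophage markers, and in the same library Cs and Acaa2 lie highest on the left while Mdh2 and Ogdh lie near 1.

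The other genes of the same pathways were counted in the same way. Of 74 such genes in 5 lists, 71 were in the table and 25 were tested, 12 with a difference above 0 and 13 below and a median of -0.01 on the log2 scale. None passed the adjusted threshold, and at an unadjusted p under 0.05 in limma-trend 0 were higher and 0 lower. Slc25a20, the carnitine carrier that links Cpt1a to Cpt2, was at 7.91 to 11.9 FPKM, and Eci2, an enoyl-CoA isomerase for unsaturated fatty acids, at 18.5 to 25.0 FPKM.

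Oxct1, which lets cells use ketone bodies, and Acsl5, which activates long-chain fatty acids, came closest to the unadjusted threshold and were picked for that. Oxct1 stood at 17.8, 11.4 and 13.8 FPKM in the controls and 11.2, 11.4 and 7.18 FPKM in pre-AML (difference -0.49, SE 0.22, adjusted p = 0.522 in limma-trend). The highest pre-AML value lay just under the lowest control value, so that the groups did not overlap by a narrow gap only. Acsl5 stood at 3.42 to 4.87 FPKM in the controls against 2.36 to 3.34 FPKM in pre-AML (difference -0.39, SE 0.18, adjusted p = 0.522 in limma-trend). Of the 10 regulators in the table only Sirt3, a mitochondrial deacetylase, and Prkaa2, a catalytic subunit of AMP-activated kinase, reached the filter, at 11.1 to 15.1 and 3.72 to 6.26 FPKM. Ppargc1a and Esrra, which drive mitochondrial genes in other tissues, were at 0 to 0.0114 and 0 to 0.0977 FPKM.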

How the data were processed

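Platelet RNA-seq of 3 control and 3 pre-AML libraries was analysed. Reads were mapped by the authors to mm10 with STAR (2.5.2b), and the authors used DESeq2 (1.12.4) for differential expression. The values the authors deposited are FPKM, 1 per gene and library. The counting program and annotation are not given in the sources used here. Multiplying by exon-union length (GENCODE M21, GRCm38) and library size gave whole reads for 85.3% of values (tolerance 0.02) over 14651 genes, and for 32 of the 41 members. For Mpc2, Pdhb, Cs, Dlst, Mdh1, Mdh2, Hadha, Etfb and Etfdh reads are approximate. The library size behind the FPKM values exceeded these reads by 1.33 times in pre-AML 3 and was 0.996 to 1.03 times them elsewhere.

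FPKM values are not counts, so the main test was limma-trend (limma 3.58.1, R 4.3.3) on log2(FPKM + 1), two-sided and without covariates, on the 4412 genes whose mean reached 1 FPKM, with Benjamini-Hochberg adjustment over all of them and a threshold of 0.05. Other statistics used Python 3.11.15, scipy 1.17.1, numpy 2.4.6 and pandas 2.3.3. The fit was tested on simulated data of 4289 genes, in which 200 of 200 genes changed by 4-fold were called, with 14 unchanged genes called. All simulated libraries shared a single dispersion taken from the 3 control libraries, so none stood apart as pre-AML 3 did. Changes smaller than 4-fold were not simulated, so the result does not show how well such changes would be found here. The intervals rest on the spread between libraries as fitted by limma-trend. The floors turn 3 reads into FPKM and carry no interval.

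The members, roles, pathway lists and marker lists were chosen with earlier results of these data known. Values in every library were given for members with an unadjusted p under 0.05, the most abundant member of each role, the 4 kinases, Cpt1a, and members whose groups did not overlap, and of other pathway genes for those with an unadjusted p under 0.05, of which there were none. Mpc1, Idh2, Sucla2, Ogdh, Mdh2, Acadvl, Hadha, Hadhb, Pdp1, Etfa, Oxct1, Acsl5, Slc25a20, Eci2, Sirt3, Prkaa2, Ppargc1a and Esrra were named after their values were seen. Alternatives were 13 planned ones (no filter, at least 5 FPKM, a pseudocount of 0.1, TPM, quantile normalization, array weights, the replicate number as a block and each library left out) and 2 added after seeing the data (loess removal of length and GC trends, and limma-voom on recovered reads). The promoter interval and motif windows came from RefSeq promoter sequences (GRCm38.p6).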

Additional observations from a re-analysis of the deposited data

How the results depend on the processing

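No member passed an adjusted p of 0.05 under any of the 15 alternatives. Acaa2 was between 0.71 and 1.46 (log2) in the 14 alternatives that tested it, with unadjusted p from 0.00206 to 0.0349 and adjusted p from 0.14 to 0.754 by limma. Genes past the threshold and higher were 1 in the main analysis, 0 with no filter, at 5 FPKM, under TPM and with limma-voom, 2 with array weights, and 0 to 2 with a library left out. Members higher at an unadjusted p under 0.05 were 2 with no filter, 2 under TPM, 2 with array weights (3.32%, 6.37% and 6.87% of all genes tested there), 0 at 5 FPKM (which drops Acaa2) and 1 to 3 with a library left out (3 without pre-AML 1, and 2 without pre-AML 2 or pre-AML 3, beside 4.53%, 2.81% and 3.83% of all tested genes). Members lower were 1 with no filter, array weights or limma-voom (2.49%, 10.3% and 7.59% of all genes) and 0 to 2 with a library left out (2 without pre-AML 1, 1 without control 2, beside 10.1% and 4.26%). The median member difference was 0.19 under TPM and -0.05 to 0.07 with a library left out. Pdhb turned to 0.15 under TPM, 0.0012 with array weights, 0.099 with length and GC trends removed and 0.0057 with limma-voom (-0.069 to 0.12 with a library left out). Mdh1 turned to 0.045 and Etfb to 0.014 under TPM (Etfb -0.25 to 0.0091 with a library left out), Mpc1 to -0.016 and Acadm to 0.017 with array weights (Mpc1 -0.040 to 0.17 with a library left out), Cpt2 to -0.0017 without length and GC trends, and the Pdk1 to Pdk3 ratio ranged from -0.16 to 0.23 with a library left out. The cause was not tested.

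Over all genes, unadjusted calls were 497 higher and 373 lower with no filter and 303 and 453 with array weights, which gave pre-AML 3 a weight of 0.208. Higher calls were 28.2% of them in the main analysis, 57.1% with no filter, 58.8% under TPM, 39.9% after quantile normalization and 45.1% without pre-AML 3. Same-numbered libraries of the groups did not deviate together (r of -0.04, -0.12 and -0.17). With so few libraries per group and pre-AML 3 far from the others, these correlations cannot show whether the numbers mark pairs. With the replicate number as a block 1 gene was past the threshold and higher, members at an unadjusted p under 0.05 were 1 higher and 0 lower, and 118 genes were higher and 254 lower. The filter at 1 FPKM left 13 members untested, 8 of them under 0.5 FPKM.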
